A study of Mus musculus with 12 samples.

Results

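The 10 genes described here, Pdgfrb, Cspg4, Nt5e, Art3, Ptn, Serpine2, Gata3, Hopx, Fhl2 and Des, are markers of mesangial cells and were followed in RNA-seq of isolated mouse glomeruli. They were picked out of the tables by symbol. All 10 were listed in both arms of the study, among 13475 genes listed in both and 16298 listed in all. Glomeruli of C57BL/6 mice were collected after magnetic beads had been perfused through the heart, with 3 different mice in each of 4 groups and 12 libraries in all. The groups were podocyte-specific DACH1 KO mice given streptozotocin (STZ), control mice given STZ, podocyte-specific DACH1 KO mice at baseline and control mice at baseline. STZ destroys the beta cells of the pancreas, which make insulin, and so induces diabetes. It was injected at 50 µg per g per day on 5 consecutive days, and glomerular RNA was isolated 10 days later. The baseline mice were 10 weeks old. The sources used here do not give the age of the STZ mice, the Cre driver or the alleles behind the knockout, and they do not explain the tag hetN in the titles of the STZ controls. The series title names the search for DACH1 target genes in podocytes as its question, so the mesangial genes report on a neighbouring cell type at which the deletion was not aimed.

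Mesangial cells are the contractile, pericyte-like cells that hold the capillary loops of the glomerulus together and secrete the matrix around themselves. Endothelial cells of the glomerulus release PDGF-B, which acts on the receptor PDGFRB of mesangial cells and is needed for their recruitment and survival. In diabetic kidney disease the mesangium is known to widen as matrix accumulates. None of the 10 genes belongs to mesangial cells alone: Pdgfrb and Cspg4 also mark pericytes, Gata3 is also made in the collecting duct, Nt5e in tubules and fibroblasts, and Des in smooth muscle and in injured podocytes. In bulk glomeruli, fewer cells of a type and less RNA per cell cannot be told apart.

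The values are estimated counts per gene, with library totals of 6.61e+07 to 7.86e+07 counts after STZ and 2.26e+07 to 2.49e+07 counts at baseline. Levels are given in CPM (counts scaled to the size of the library), with all 12 libraries scaled together by TMM factors. Dach1 had 55.8, 65.9 and 67.01 CPM in STZ knockouts and 145, 175 and 183 CPM in STZ controls. It had 47.2, 56.7 and 59.3 CPM in baseline knockouts and 162, 106 and 188 CPM in baseline controls. The knockout libraries thus lay below the control libraries in both arms, with a log2 fold change of -1.41 ± 0.14 after STZ (SE, adjusted p = 0.00942) and of -1.48 ± 0.23 at baseline (adjusted p = 0.111, not past the threshold of 0.05). The sexes were unevenly spread. By Xist and Ddx3y, 1 of 6 STZ libraries (knockout 2) and 4 of 6 baseline libraries (mice 1 and 2 of either genotype) were from females. Arm also went with depth and with the number of genes listed (16293 after STZ and 13480 at baseline), so the effect of STZ cannot be told apart from any other difference between the arms.

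The 10 genes differed mainly between the arms. In a fit over all 12 libraries with genotype as a block, 7 of the 10 genes fell in STZ glomeruli (adjusted p under 0.05), whereas 8.68% of all 13475 genes were called and 3.88% were called lower. The 7 were Pdgfrb, Cspg4, Nt5e, Ptn, Gata3, Fhl2 and Des, at 0.450 to 0.652 times their baseline level. Art3 was at 0.503 and Hopx at 0.791 times the baseline level without passing the threshold, and Serpine2 was at 0.967 times its baseline level (95% interval 0.733 to 1.28). The median log2 fold change of the 10 genes was -0.78, beside 0.03 over all genes. With sex added as a covariate 4 of the 10 were called lower (Pdgfrb, Cspg4, Ptn and Des), beside 1.02% of all genes. Between knockouts and controls none of the 10 genes was called in either arm. The fit over both genotypes was added after the data had been seen, and the 10 genes were chosen with earlier results of these data known.

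**Figure D1:**
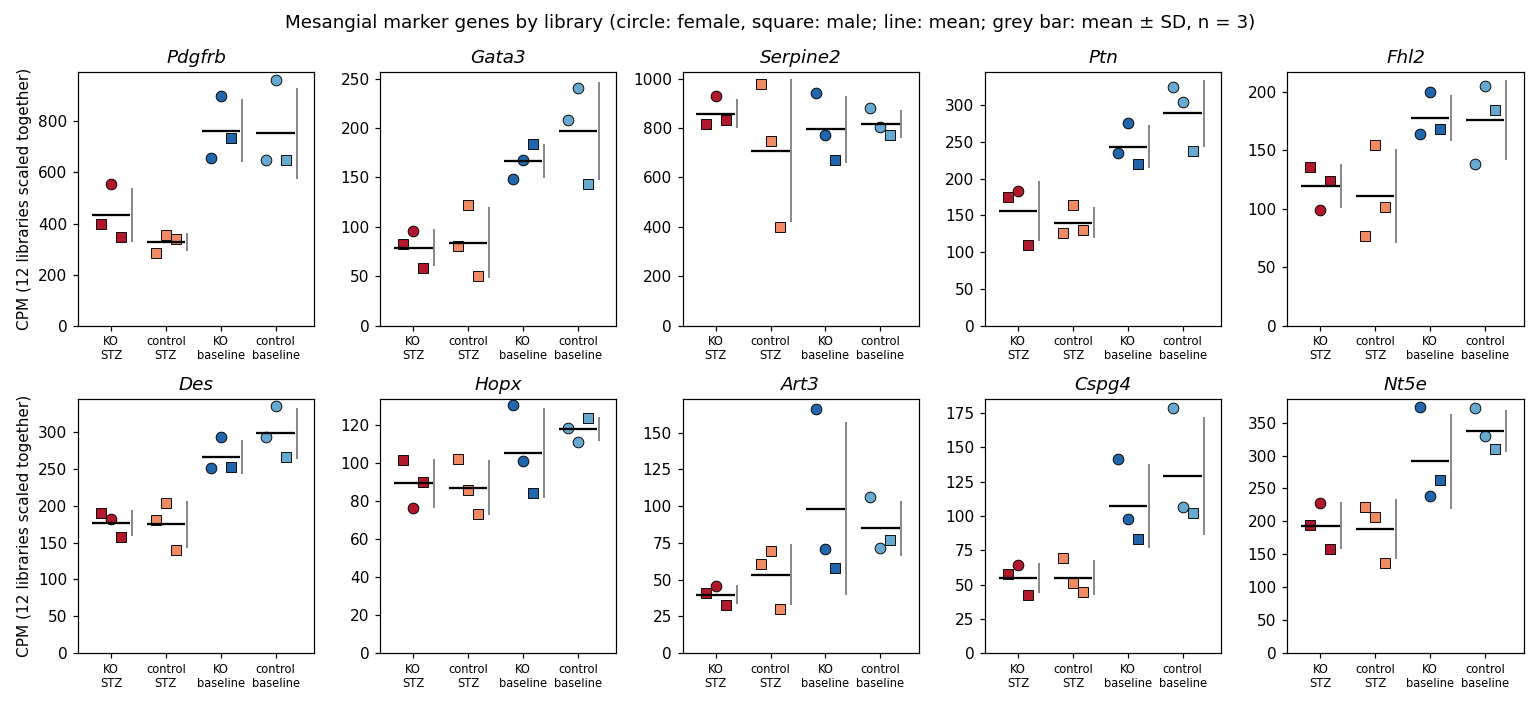
Level of each of the 10 mesangial marker genes in the 12 libraries (vertical axis, CPM from 0) by group (horizontal axis, STZ groups left of the baseline groups and knockouts left of controls). Circles are females and squares males, black lines are group means and grey bars mean ± SD (n = 3). For Pdgfrb, Cspg4, Nt5e, Ptn, Gata3 and Des the 6 STZ libraries lie below the 6 baseline libraries, and for Serpine2 the arms overlap.

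The stretches upstream of 3 of the genes are shown because Fhl2, Hopx and Des share a background in contractile cells, where the CArG box, the binding motif of serum response factor, is common. They are the 250 bases before the annotated start, 5′ to 3′ on the strand of the gene, from RefSeq (GRCm38.p6). Capitals mark matches, on either strand, to the CArG box (given by its name, 10 bases long), the TATA box (letters TATAAA), the GATA motif (letters AGATAA) and the E-box (letters CAGCTG). None of the marked matches overlaps another. For Fhl2, Hopx and Art3 the stretches before starts at more than 1 place were searched. Both stretches of Fhl2 are shown. Of Hopx only the upstream stretch is shown, and the other searched one held none of these matches. The genes Fhl2 and Gata3 reach further upstream in RefSeq, to 43198343 and 9887953. The stretches before these ends were not searched.
Fhl2 GRCm38.p6 chr1:43196762-43197011 (minus strand): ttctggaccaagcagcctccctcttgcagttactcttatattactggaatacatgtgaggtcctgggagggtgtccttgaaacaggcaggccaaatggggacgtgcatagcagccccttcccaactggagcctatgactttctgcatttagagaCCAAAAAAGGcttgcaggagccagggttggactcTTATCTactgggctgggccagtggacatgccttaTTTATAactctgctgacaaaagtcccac
Fhl2 GRCm38.p6 chr1:43163962-43164211 (minus strand): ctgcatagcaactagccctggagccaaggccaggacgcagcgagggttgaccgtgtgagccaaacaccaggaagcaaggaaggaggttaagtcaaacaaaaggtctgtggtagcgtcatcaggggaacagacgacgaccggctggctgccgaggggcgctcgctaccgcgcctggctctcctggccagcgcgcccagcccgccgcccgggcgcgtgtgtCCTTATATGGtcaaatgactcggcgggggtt
Hopx GRCm38.p6 chr5:77115124-77115373 (minus strand): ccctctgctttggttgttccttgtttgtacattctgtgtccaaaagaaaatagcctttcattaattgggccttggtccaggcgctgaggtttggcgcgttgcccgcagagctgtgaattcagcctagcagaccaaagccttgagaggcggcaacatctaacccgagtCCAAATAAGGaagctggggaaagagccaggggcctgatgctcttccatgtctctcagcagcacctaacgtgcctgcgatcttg
Des GRCm38.p6 chr1:75360042-75360291 (plus strand): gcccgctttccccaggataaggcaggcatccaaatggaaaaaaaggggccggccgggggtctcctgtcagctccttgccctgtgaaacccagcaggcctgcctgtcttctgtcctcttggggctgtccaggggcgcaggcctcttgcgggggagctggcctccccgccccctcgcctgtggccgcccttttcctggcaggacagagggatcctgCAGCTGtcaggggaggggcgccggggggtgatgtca
A CArG box was found before both searched starts of Fhl2 and before the upstream start of Hopx. It was found before none of the other starts searched in the 9 genes. Of all 32851 promoters of the same length, 1.47% hold one. Des held an E-box, which 13% of promoters hold. The more upstream of the searched Fhl2 starts also held a TATA box (in 12.4% of promoters) and a GATA motif (in 9.99%). These matches describe letters only, and binding was not measured.

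Positions are from RefSeq on GRCm38.p6. Pdgfrb, on chromosome 18, encodes the PDGF receptor of mesangial cells. It had 398, 554 and 348 CPM in STZ knockouts and 286, 355 and 340 CPM in STZ controls. It had 656, 899.7 and 737 CPM in baseline knockouts and 649, 960.2 and 650.5 CPM in baseline controls. All 6 STZ libraries lay below all 6 baseline libraries, and the highest STZ library came from the female mouse of that arm. Over both genotypes Pdgfrb fell by 1.01 on the log2 scale in STZ glomeruli (SE 0.16, 95% interval -1.35 to -0.67, adjusted p = 0.00425), to 0.496 times its baseline level. Knockout and control libraries overlapped in both arms, with log2 fold changes of 0.41 ± 0.20 after STZ (SE, adjusted p = 0.660) and 0.02 ± 0.21 at baseline (adjusted p = 0.989). The difference after STZ was the largest positive one among the 10 genes, and its 95% interval ran from -0.07 to 0.90. It was 0.19 without the female STZ knockout and up to 0.55 without another library.

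Cspg4 (chromosome 9, 56865104 to 56899870, plus strand) encodes NG2, a proteoglycan of the pericyte and mesangial cell surface that binds PDGF. It had 57.6, 64.3 and 42.6 CPM in STZ knockouts and 69.5, 51.4 and 44.3 CPM in STZ controls. It had 142, 97.7 and 82.8 CPM in baseline knockouts and 178, 107 and 102 CPM in baseline controls. The arms did not overlap, and in either baseline group mouse 1 was the highest. Cspg4 fell by 1.10 on the log2 scale after STZ (SE 0.19, adjusted p = 0.00776), with changes of -1.0 in knockouts and -1.26 in controls taken alone, neither past the threshold. Between knockouts and controls the difference was -0.0037 ± 0.23 after STZ (SE, adjusted p = 0.998) and -0.27 ± 0.29 at baseline (adjusted p = 0.852).

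Nt5e (chromosome 9, 88327609 to 88372089, plus strand) encodes CD73, the surface enzyme that makes adenosine from AMP. It had 195, 228 and 158 CPM in STZ knockouts and 222, 207 and 136 CPM in STZ controls. It had 374, 238 and 262 CPM in baseline knockouts and 373, 330.0 and 311 CPM in baseline controls. The arms were separated by a narrow gap, between 228 CPM in the highest STZ library and 238 CPM in the lowest baseline library, both from knockouts. Nt5e fell by 0.72 on the log2 scale after STZ (SE 0.15, adjusted p = 0.0179). Without STZ knockout 3 the adjusted p was 0.0511, and with sex as a covariate it was 0.105.

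Art3 (chromosome 5, 92331799 to 92414628, plus strand) encodes a member of the family of ADP-ribosyltransferases anchored to the outer cell surface. It had 40.7, 45.4 and 32.8 CPM in STZ knockouts and 60.8, 69.5 and 29.8 CPM in STZ controls. It had 166, 71.1 and 57.9 CPM in baseline knockouts and 106, 71.6 and 76.8 CPM in baseline controls. STZ control 2 reached above baseline knockout 3, so the arms overlapped, although within each genotype they did not. Art3 was the most variable of the 10 genes, with a coefficient of variation of 60.0% in baseline knockouts, where mouse 1 stood at more than 2 times either other mouse. Its log2 fold change after STZ was -0.99 ± 0.29 (SE, adjusted p = 0.0562), and without STZ control 2 it was -1.13 (adjusted p = 0.0433). Art3 shared 133 exon bases with Cxcl10 on the other strand, and the strand setting of the counting is not given in the sources used here.

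Ptn (chromosome 6, 36714924 to 36810179, minus strand) encodes pleiotrophin, a secreted heparin-binding growth factor. It had 175, 184 and 110 CPM in STZ knockouts and 126, 164 and 130.1 CPM in STZ controls. It had 234, 276 and 219.9 CPM in baseline knockouts and 324, 304 and 238 CPM in baseline controls. The arms did not overlap, with 184 CPM as the highest STZ value and 219.9 CPM as the lowest at baseline. Ptn fell by 0.84 on the log2 scale after STZ (SE 0.15, adjusted p = 0.00835), to 0.558 times its baseline level. Taken alone, the change was -0.66 in knockouts and -1.07 in controls, and neither passed the threshold. The difference between these 2 changes, 0.40 ± 0.29 (SE, adjusted p = 0.9751), was the largest positive interaction among the 10 genes and did not pass the threshold.

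Serpine2 (chromosome 1, 79794317 to 79858665, minus strand) encodes protease nexin-1, a secreted inhibitor of thrombin and of plasminogen activators. It had 818, 928 and 830.3 CPM in STZ knockouts and 976, 746 and 401 CPM in STZ controls. It had 939.9, 770.3 and 672 CPM in baseline knockouts and 881, 803 and 771 CPM in baseline controls. The STZ controls spanned the whole range, holding both the highest and the lowest of the 12 libraries. The log2 fold change after STZ was -0.05 ± 0.18 (SE, 95% interval -0.45 to 0.35, adjusted p = 0.912), so a fall of the size of that of Pdgfrb lies outside its interval. Its sign turned with sex as a covariate (0.08, adjusted p = 0.895). Between knockouts and controls the difference was 0.28 ± 0.31 after STZ and -0.04 ± 0.15 at baseline.

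Gata3 (chromosome 2, 9857078 to 9887953, minus strand) encodes a zinc-finger transcription factor that mesangial cells need in development. It had 82.8, 95.9 and 58.6 CPM in STZ knockouts and 80.3, 122 and 50.2 CPM in STZ controls. It had 149, 168 and 183 CPM in baseline knockouts and 208, 240.5 and 143 CPM in baseline controls. The arms did not overlap. Gata3 had the lowest ratio of the 10 genes between the arms, 0.450 times its baseline level (95% interval 0.328 to 0.618). Its log2 fold change was -1.15 ± 0.21 (SE, adjusted p = 0.00882), and with sex as a covariate it was -1.02 (adjusted p = 0.0535).

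Hopx (chromosome 5, 77086986 to 77115123, minus strand) encodes an atypical homeodomain protein that does not bind DNA and that restrains serum response factor. It had 102, 76.2 and 89.9 CPM in STZ knockouts and 102, 85.7 and 73.4 CPM in STZ controls. It had 131, 101 and 84.4 CPM in baseline knockouts and 119, 111 and 124 CPM in baseline controls. The arms overlapped in the knockouts and did not in the controls. The log2 fold change was -0.34 ± 0.12 (SE, adjusted p = 0.107). Hopx shares 412 exon bases (27.2% of its exons) with the antisense gene Hopxos, so part of its counts could come from that gene if strand was not used.

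Fhl2 (chromosome 1, 43123071 to 43198343, minus strand) encodes a LIM-domain cofactor that works with serum response factor and other transcription factors. It had 136, 98.7 and 123 CPM in STZ knockouts and 76.4, 155 and 102 CPM in STZ controls. It had 164, 199.6 and 168 CPM in baseline knockouts and 138, 205 and 184 CPM in baseline controls. STZ control 2 lay above baseline control 1, and otherwise the arms were apart. Fhl2 fell by 0.62 on the log2 scale (SE 0.16, adjusted p = 0.0422). This call was marginal: it was lost in 10 of the 12 fits that left out 1 library (adjusted p up to 0.0867) and with sex as a covariate (adjusted p = 0.117). The call was kept only without baseline control 1 or without STZ control 2, the pair in which the arms overlapped.

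Des (chromosome 1, 75360292 to 75368579, plus strand) encodes desmin, an intermediate filament protein of contractile cells. It had 190.1, 183 and 157 CPM in STZ knockouts and 181, 203 and 141 CPM in STZ controls. It had 252, 294 and 253 CPM in baseline knockouts and 293, 335 and 267 CPM in baseline controls. The arms did not overlap, and the coefficient of variation of Des was 9.74% in STZ knockouts, 18.1% in STZ controls, 8.85% in baseline knockouts and 11.6% in baseline controls. It fell by 0.68 on the log2 scale (SE 0.10, 95% interval -0.91 to -0.45, adjusted p = 0.00412), which held with sex as a covariate (-0.60, adjusted p = 0.0331).

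Taken within 1 genotype, with 3 mice against 3, none of the 10 genes passed the threshold in edgeR's quasi-likelihood test between STZ and baseline. In knockouts 0.178% of 13473 genes were called and in controls 0.23%. In knockouts 9 of the 10 genes had a negative fold change after STZ (53.2% of all genes did), 8 of them at an unadjusted p under 0.05 (6.9% of genes were lower at that level) and 8 with no overlap of the groups (10.4% of genes). In controls all 10 had one (46.3% of all genes), 8 at an unadjusted p under 0.05 (6.98% of genes) and 8 without overlap (10.3% of genes). The median log2 fold change of the 10 genes was -0.64 in knockouts and -0.84 in controls, beside -0.02 and 0.02 over all genes. DESeq2, which called 2.76% of all genes lower in knockouts and 1.97% in controls, called 6 of the 10 lower in knockouts (Pdgfrb, Gata3, Fhl2, Des, Art3 and Cspg4). In controls it also called 6 (Pdgfrb, Gata3, Ptn, Des, Cspg4 and Nt5e). By Xist and Ddx3y the STZ controls were all male and most baseline controls female, and DESeq2 was not fitted with sex. With sex as a covariate edgeR called none of the 10 within either genotype. In controls the change of Gata3 was then -0.79, beside -1.26 without the covariate.

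**Figure D2:**
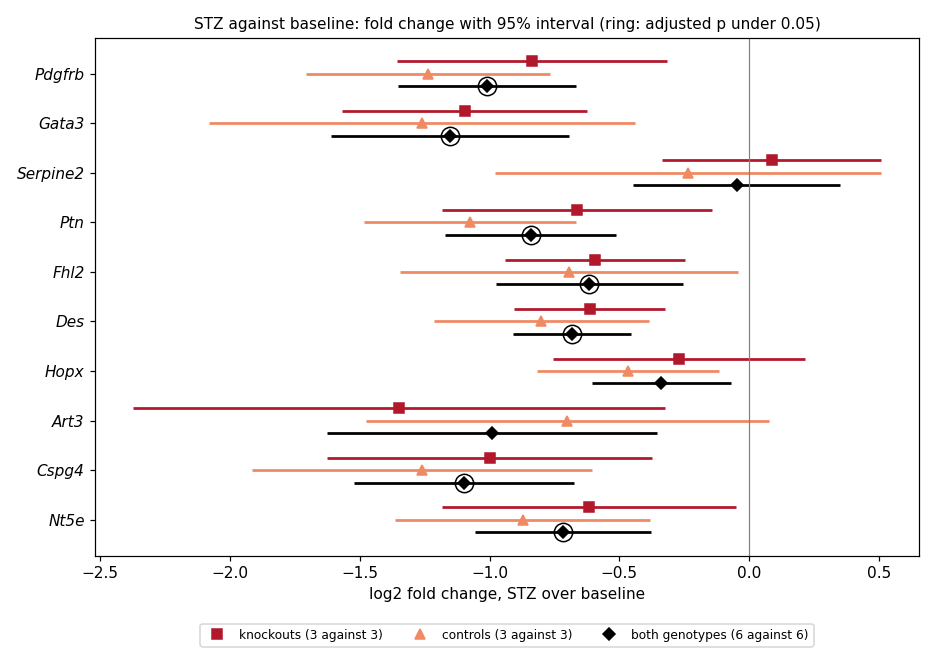
Log2 fold change of STZ over baseline (horizontal axis) for each of the 10 genes (vertical axis), in knockouts (squares), controls (triangles) and both genotypes with genotype as a block (diamonds). Bars are 95% intervals and rings mark an adjusted p under 0.05. The ringed genes are the 7 called over both genotypes, from -1.15 for Gata3 to -0.62 for Fhl2, and no gene is ringed within 1 genotype.

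Sex was compared by splitting the libraries. Over all libraries, 6 of the 10 genes had every STZ library below every baseline library (2.48% of genes did). Among males, with 5 STZ against 2 baseline libraries, 7 did (5.87% of genes), the 3 exceptions being Serpine2, Hopx and Art3. Among females 1 STZ library stood against 4 at baseline, and it was below all of them for 9 genes (19.3% of genes). For Pdgfrb the males had 286, 348 and 398 CPM after STZ (lowest, median and highest of 5), against 650.5 and 737 CPM in the 2 baseline males. The female STZ mouse had 554 CPM, against 649, 778 and 960.2 CPM (lowest, median and highest) in the 4 baseline females. The ratio of the mean STZ level to the mean baseline level was 0.498 in males and 0.700 in females for Pdgfrb. It was 0.482 and 0.501 for Gata3 and 0.671 and 0.623 for Des. The female ratios rest on 1 STZ library. No error was computed for the ratios of either sex, and their difference was not tested.

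Loss of Dach1 in podocytes was the other comparison. At baseline none of the 10 genes was called (edgeR's quasi-likelihood test, 0.23% of 13475 genes called), none had an unadjusted p under 0.05 (6.92% of genes) and DESeq2 called none. Log2 fold changes ran from -0.27 for Cspg4 to 0.21 for Art3, with 95% intervals reaching at most from -0.97 to 1.22. After STZ none of the 10 was called either (1.07% of 16291 genes), again with none at an unadjusted p under 0.05 (9.08% of genes) and none called by DESeq2. There the changes ran from -0.43 for Art3 (95% interval -1.17 to 0.32) to 0.41 for Pdgfrb. In neither arm was any of the 10 without overlap between knockouts and controls, although 11.8% of genes at baseline and 14.9% after STZ were. Over both arms with arm as a block, 2.82% of 13475 genes were called and none of the 10, with none at an unadjusted p under 0.05 (12.9% of genes) and none called by DESeq2. In that fit the changes lay between -0.17 for Gata3 and 0.21 for Pdgfrb, and the widest interval was that of Art3, from -0.74 to 0.52. Intervals of this width leave moderate differences undetected with 3 mice a group.

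The change with STZ was also compared between genotypes. None of the 10 genes differed in the interaction fit (0.00742% of genes, 1 gene, called), none at an unadjusted p under 0.05 (3.68% of genes) and none by DESeq2. The smallest adjusted p among them was 0.9751. The interaction was positive for 9 of the 10, meaning a less negative or more positive change in knockouts than in controls, beside 44.9% of all genes, and negative for Art3 (-0.64 ± 0.57, SE). The 10 genes share their libraries, so this count carries no test.

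**Figure D3:**
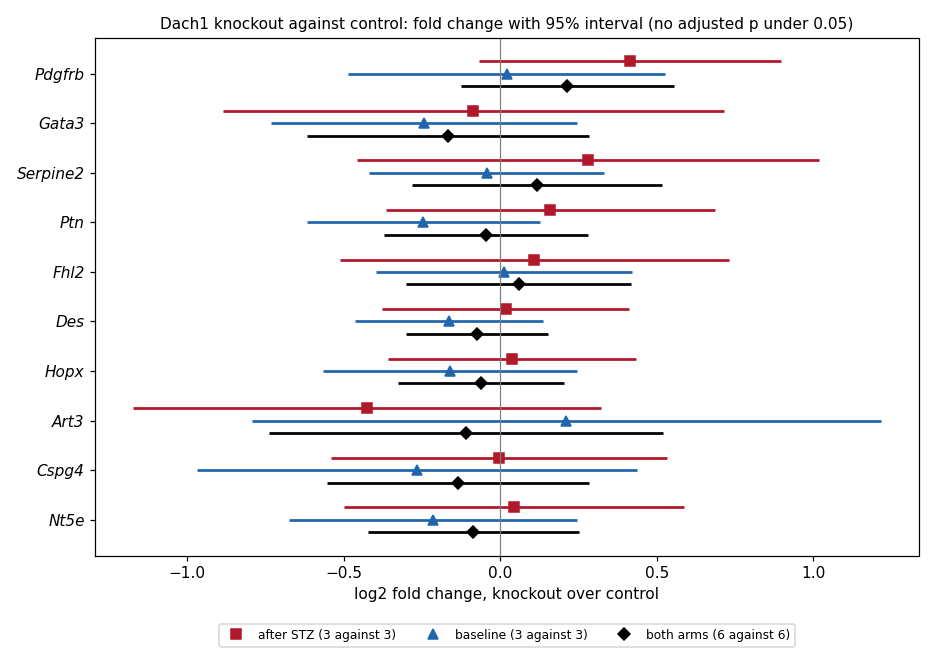
Log2 fold change of knockout over control (horizontal axis) for each of the 10 genes (vertical axis), after STZ (squares), at baseline (triangles) and in both arms with arm as a block (diamonds). Bars are 95% intervals, and every one of them includes 0. The points lie between -0.43 and 0.41.

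Levels of different genes were compared per kilobase of exon annotated in GENCODE. At baseline Pdgfrb was the highest of the 10 in both genotypes, at 139.5 ± 22.6 CPM per kb in knockouts and 137.5 ± 32.7 CPM per kb in controls (SD, n = 3 each). Serpine2 came second there, at 95.8 ± 16.4 and 98.7 ± 6.82 CPM per kb, and its range did not reach that of Pdgfrb in either group. After STZ the order of the pair was turned: Serpine2 had 103.6 ± 7.27 CPM per kb in knockouts and 85.4 ± 34.9 in controls, and Pdgfrb 79.1 ± 19.6 and 59.7 ± 6.55. The ranges of the pair overlapped in both STZ groups. In CPM not divided by length, the mean of Serpine2 was above that of Pdgfrb at baseline too. Serpine2 had 794 CPM and Pdgfrb 764 CPM in baseline knockouts, and 818 and 753 CPM in baseline controls. The turn of the order thus rests on the exon lengths used, 8.287 kb for Serpine2 and 5.478 kb for Pdgfrb. The annotation behind the counts is not known. Per kb, Cspg4 was the lowest in all 4 groups. It had 4.59 ± 0.93 and 4.62 ± 1.09 CPM per kb in STZ knockouts and controls. At baseline it had 9.0002 ± 2.56 and 10.8 ± 3.58 CPM per kb in knockouts and controls. In baseline controls the order below Serpine2 was Fhl2, Ptn, Des, Hopx, Gata3, Nt5e, Art3 and Cspg4. There Fhl2, Ptn, Des and Hopx overlapped with their neighbours, as did Gata3 with Nt5e, whereas Hopx stood above Gata3, Nt5e above Art3 and Art3 above Cspg4 without overlap. In STZ knockouts the order below Pdgfrb was Fhl2, Hopx, Des, Ptn, Nt5e, Gata3, Art3 and Cspg4. There the steps from Ptn to Nt5e, Gata3 to Art3 and Art3 to Cspg4 were free of overlap and the others were not.

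Mesangial genes outside the 10 were mostly lower after STZ too. Of 12 such genes considered, 11 were measured in both arms, and 8 of the 11 fell in STZ glomeruli with none higher (Tbx18 was not listed). Among all genes 3.88% were called lower. This list was chosen, like the 10 genes, with earlier results of these data known. Its count is thus no independent support for the fall of the 10. Sfrp2, a secreted modulator of Wnt signalling, had the lowest fold change, -1.61 ± 0.17 (SE, adjusted p = 0.000519). It had 230, 355 and 426 CPM in STZ libraries (lowest, median and highest of 6), against 724, 1107 and 1339 CPM in baseline libraries. Itga8, the integrin chain by which mesangial cells hold to their matrix, had 451, 703 and 1055 CPM after STZ, against 1052, 1286 and 1426 CPM at baseline (log2 fold change -0.87 ± 0.18, adjusted p = 0.0160). Agtr1a, the angiotensin II receptor, fell by 0.75 (SE 0.12, adjusted p = 0.00453) and Igfbp5, a binding protein of insulin-like growth factors, by 0.78 (SE 0.14, adjusted p = 0.00776). Gucy1a3 and Gucy1b3, the subunits of the nitric oxide receptor, fell by 0.92 and 0.60 (adjusted p = 0.00765 and 0.0285), and Postn and Lhfp by 0.94 and 0.55. Akap12, Prkg1 and Rgs7bp were not called, with changes of 0.53, 0.20 and 0.01. In controls alone Sfrp2 (-1.83, adjusted p = 0.0125) and Postn (-1.55, adjusted p = 0.00831) were called lower. Postn had a change of -0.38 in knockouts (adjusted p = 0.322), with an interaction of 1.17 ± 0.17 (SE, adjusted p = 0.0973). At baseline Postn was already lower in knockouts than in controls, by 0.94 (SE 0.12, adjusted p = 0.0682, not called). The smaller change in knockouts thus started from a lower baseline level. Between knockouts and controls edgeR called none of the 11 in either arm, over both arms or in the interaction. At an unadjusted p under 0.05 there was 1 lower at baseline, Postn, and 1 higher after STZ. Of all genes 6.92% and 9.08% passed that level there, higher or lower. None of the 11 passed it over both arms (12.9% of all genes), and 3 passed it in the interaction, all higher (3.68% of all genes). DESeq2 called 1 lower at baseline and 1 higher in the interaction, beside 220 and 31 among all genes, higher or lower.

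Around Pdgfrb, 3 of 7 genes for PDGF ligands and their partners fell after STZ and none rose, where 3.88% of all genes were called lower. Pdgfb, the ligand that endothelial cells release, had 117, 128 and 163 CPM in STZ libraries (lowest, median and highest of 6), against 161, 214 and 246 CPM at baseline, a log2 change of -0.63 ± 0.11 (SE, adjusted p = 0.00662). Nrp1, a co-receptor for several growth factors, fell by 0.71 (adjusted p = 0.00620) and Pdgfa by 0.38 (adjusted p = 0.0372). Pdgfc, Pdgfd, Pdgfra and Plat had negative changes between -0.38 and -0.61 that were not called, and Pdgfrl was not listed. Around Gata3, Gata2 (-0.58, adjusted p = 0.0457) and Gata5 (-0.67, adjusted p = 0.0156) fell, and the cofactor Zfpm1 did not pass (-0.28), while Gata4, Gata6 and Zfpm2 were not listed in either arm. Around Nt5e, 1 of 12 genes of adenosine metabolism and signalling fell, Alpl, a phosphatase that can also release adenosine (-0.76, adjusted p = 0.0246), with none higher. This count is near the share of all genes called either way, 8.68%.

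Of 7 other filament genes measured, Vim, the vimentin gene, rose by 0.98 ± 0.24 (SE, adjusted p = 0.0316) and Nes, the nestin gene, by 0.69 ± 0.11 (adjusted p = 0.00555), and none fell. Among all genes 8.68% were called either way. For Vim the change was 1.56 in knockouts and 0.35 in controls taken alone, with an interaction of 1.19 ± 0.32 (SE, adjusted p = 0.9751). Both are also strongly expressed in podocytes, and Nes is on the podocyte list as well. None of the 6 genes of the pleiotrophin and midkine pathway passed, nor of the 9 targets and partners of protease nexin-1, nor of the 6 partners of FHL2, HOPX and serum response factor. Lrp1, an endocytic receptor that takes up both pleiotrophin and protease nexin-1 and stands on both lists, had a change of -0.61 (adjusted p = 0.0766). The smallest adjusted p among the partners of serum response factor was that of Mkl1 (-0.37, adjusted p = 0.0838). At an unadjusted p under 0.05 there were 2 of these genes in each of the 3 lists, and the share of all genes at that level was not worked out. DESeq2 called 1, 2 and 1 of them, beside 1817 genes, higher or lower, among all genes.

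Some markers of other cell types moved between the arms too, where 8.68% of all genes were called and 3.88% were called lower. Of the 10 podocyte genes 4 rose after STZ and none fell, with Ptpro, Tcf21 and Nes among them. Tcf21 had a change of 0.72 in knockouts and 0.20 in controls taken alone, neither called, with an interaction of 0.51 ± 0.22 (SE, adjusted p = 0.9751). Their summed level was 31915 to 33432 CPM in STZ knockouts, 30038 to 37067 CPM in STZ controls, 19086 to 23268 CPM in baseline knockouts and 20549 to 27838 CPM in baseline controls. Of 10 genes of the glomerular endothelium 3 fell (Ehd3, Emcn and Tek) and none rose. Their sum was 6241 to 7688 and 6273 to 10065 CPM in STZ knockouts and controls and 9075 to 11924 and 10502 to 10964 CPM in baseline knockouts and controls. In smooth muscle and renin cells 1 of 12 genes fell (Smtn), and in fibroblasts none of 5 and in parietal epithelium none of 7 was called (2 and 0 at an unadjusted p under 0.05, 1 and 0 by DESeq2). Between STZ knockouts and STZ controls Tagln, a smooth muscle gene, rose by 3.77 ± 0.55 (SE, adjusted p = 0.0338). Over both arms the podocyte gene Synpo (-0.56, adjusted p = 0.00802) fell in knockouts, as did Ncam1 of the parietal epithelium list (-0.97, adjusted p = 0.000552). Their part in the change of the mesangial genes was not tested.

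Of 9 macrophage genes measured 5 rose after STZ (C1qa, C1qb, C1qc, Lyz2 and Adgre1), by 1.32 to 3.50 on the log2 scale, and Mrc1 fell by 1.03. Among all genes 8.68% were called either way. The sums were 211 to 381 CPM in STZ knockouts, 207 to 806 CPM in STZ controls, 258 to 312 CPM in baseline knockouts and 317 to 399 CPM in baseline controls. The highest library was STZ control 1, and the other STZ controls had 251 and 207 CPM. At baseline Mrc1 made up most of these sums, with a median of 240 CPM, against 20.0 CPM for Lyz2 and 1.57 CPM for C1qa. The mean log2 CPM of the list, in which each gene counts alike, was 3.38 to 5.99 in STZ libraries. In baseline libraries it was 2.64 to 3.31. Single markers ranged widely: C1qa had 4.40 to 63.7 CPM after STZ and 1.22 to 3.47 CPM at baseline, Lyz2 had 32.3 to 279 and 10.8 to 25.5 CPM, and Mrc1 had 81.0 to 166 and 188 to 321 CPM. None of the 9 was at 0 in any library. Their part in the change of the mesangial genes was not tested.

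Tubule fragments differed widely between libraries of the same group. The sum of 20 proximal tubule genes ran from 3866 to 13311 CPM in STZ knockouts, from 2990 to 14568 CPM in STZ controls, from 2392 to 29713 CPM in baseline knockouts and from 3586 to 7989 CPM in baseline controls. None of the 20 genes was called between the arms (1 at an unadjusted p under 0.05, 1 by DESeq2), and of 17 genes of the loop, distal tubule and collecting duct Aqp2 rose (1.17, adjusted p = 0.0194). That is 1 of 17, where 8.68% of all genes were called either way. With the mean level of the proximal tubule list as a covariate, 9 of the 10 mesangial genes were called lower after STZ over both genotypes, Serpine2 being the exception, and 7.47% of all genes were. With that covariate Gata3 (-1.05, adjusted p = 0.04997) and Art3 (-1.4, adjusted p = 0.0473) were called lower in knockouts alone, beside 1.25% of all genes.

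**Figure D4:**
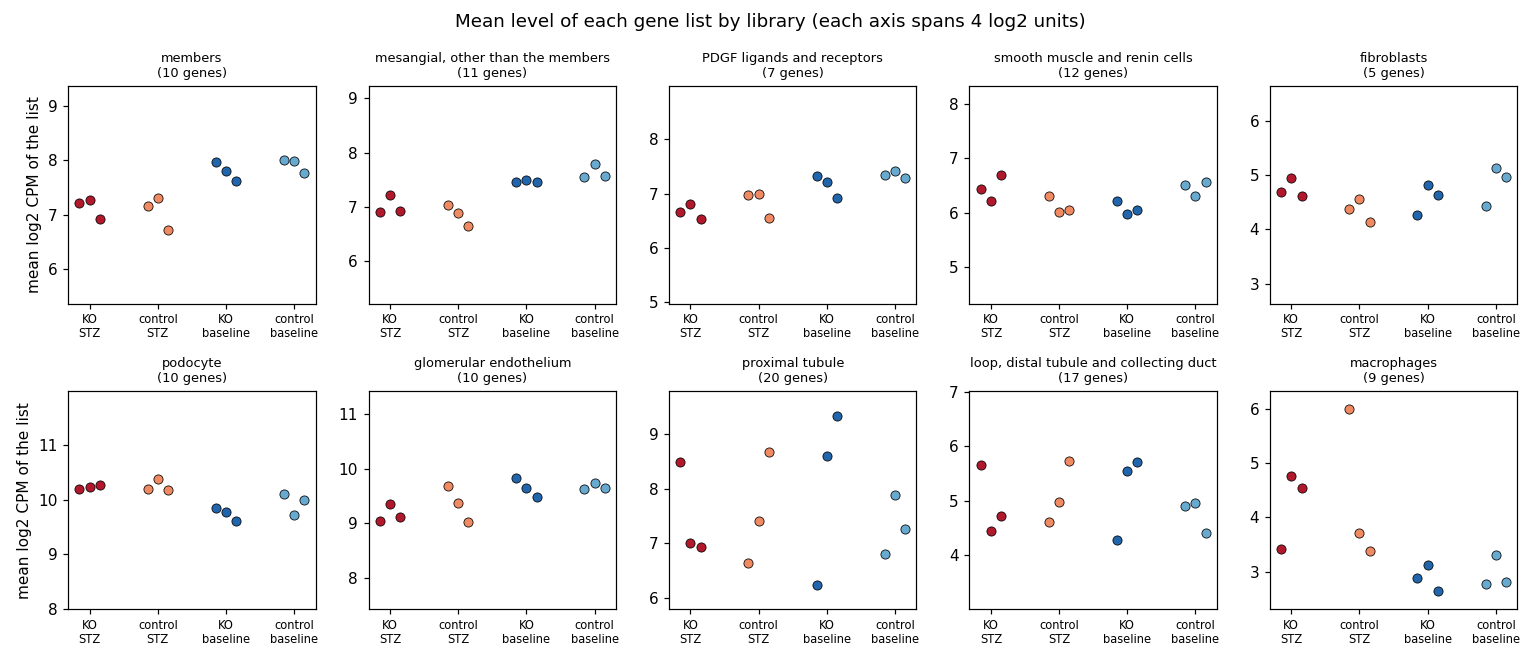
Mean log2 CPM of each gene list (vertical axis, each spanning 4 log2 units) in each library, by group (horizontal axis, STZ groups left of the baseline groups and knockouts left of controls). The 10 mesangial genes and the other mesangial genes are lower in every STZ library than in any baseline library, the podocyte genes are higher, and the proximal tubule list spreads from 6.23 to 9.35 within the baseline knockouts alone.

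The 10 genes were also compared with each other across mice of the same group, after the mean of each group had been subtracted from log2 CPM over the 12 libraries. Among the 45 pairs Pearson's r ran from -0.56 to 0.90 with a median of 0.39, and 33 pairs were above 0. The pairs share library, depth and tissue composition, so these values are descriptions. Art3 and Nt5e had the highest r (0.90), followed by Gata3 and Des (0.89). Cspg4, Nt5e, Art3 and Serpine2 had r of 0.67 to 0.90 among themselves, and Pdgfrb, Ptn, Gata3 and Des had r of 0.50 to 0.89. Pdgfrb with Hopx and Fhl2 with Cspg4 were the lowest (both -0.56). In the baseline knockouts Art3, Cspg4 and Serpine2 were each highest in mouse 1 and lowest in mouse 3, and Nt5e was highest in mouse 1 and lowest in mouse 2, while the mean log2 level of the proximal tubule genes was 6.23, 8.61 and 9.35 in mice 1, 2 and 3. The part of the tubule content in these correlations was not tested.

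**Figure D5:**
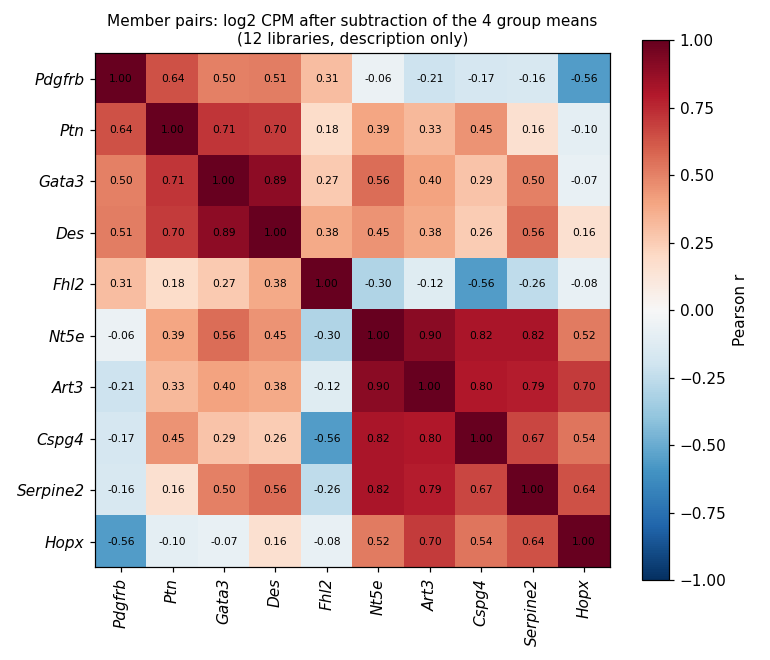
Pearson's r between each pair of the 10 genes over 12 libraries, from log2 CPM after subtraction of the 4 group means (colour from -1 in blue to 1 in red, values printed in the cells). Nt5e, Art3, Cspg4, Serpine2 and Hopx form one block of positive values and Pdgfrb, Ptn, Gata3 and Des another, with values near or below 0 between Pdgfrb and the first block. The blocks are not separate: the other values between them run from -0.10 (Ptn with Hopx) to 0.56 (Gata3 with Nt5e).

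Over the same 12 libraries and 13461 genes, the genes outside the 10 with the highest r to Pdgfrb were Arhgef40 (0.92), Plxnd1 (0.90), Npr2 (0.90), Unc13a (0.89) and Mfsd7c (0.89). Among the other 9 marker genes Ptn came closest to Pdgfrb (0.64), at rank 515. The genes with the highest r to the mean of the 10 were Atp1b2, Atp2a2, Plod1, Ddr2 and Nrp1, all between 0.93 and 0.94. Of these only Nrp1 was on one of the lists, and it was called lower after STZ.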

How the data were processed

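Per the labels, glomerular RNA of 12 mice was sequenced, and the deposited tables hold estimated counts per gene made by the authors, of which 10.5 to 11.5% end in a fraction of 0.5. BWA and the build mm10 are listed, per the submitters' processing notes, with no role or version. The counting tool, annotation and strand setting do not appear in the sources used here. Counts were rounded and the blank values, 10 in the STZ table and 8 in the baseline table, taken as 0. Each comparison was fitted across all genes with edgeR 4.0.16 (R 4.3.3, limma 3.58.1) by the quasi-likelihood test after filterByExpr and TMM scaling. P-values were adjusted by Benjamini-Hochberg over all genes tested, and genes were called at an adjusted p under 0.05. SEs and 95% intervals come from the same fits. Levels in CPM were scaled over the 12 libraries together, and log2 CPM used a prior count of 2. Alternatives were median-of-ratios size factors, no filter, DESeq2 1.42.0, a proximal tubule covariate and leaving out each library. A sex covariate and the STZ comparison over both genotypes were added after the data had been seen, to 6 planned comparisons. The code was tested on simulated data. The 10 genes and the 16 lists were chosen with earlier results of these data known. The 10 genes were named throughout. By rule, the genes called in each list were to be named, and otherwise up to 4 genes of smallest p, but some called genes are not reported here and are left unnamed. For likeness, the 5 genes with the highest Pearson's r were named. Replicate numbers only name mice, which per the labels are different animals.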

Additional observations from a re-analysis of the deposited data

How the results depend on the processing

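Over both genotypes, 7 of the 10 genes were called lower in STZ glomeruli, and 7 with median-of-ratios size factors, 7 without the filter, 8 with DESeq2 (Art3 added) and 9 with the proximal tubule covariate (Art3 and Hopx added). With sex as a covariate 4 were called, and Gata3, Fhl2 and Nt5e were lost. Leaving out 1 library gave 5 to 8, with Pdgfrb, Gata3, Ptn, Des and Cspg4 called in 12 of 12. Within a genotype none was called, but 6 in knockouts and 6 in controls with DESeq2, and 2 in knockouts with the tubule covariate. With sex as a covariate none was called within either genotype. Counts over all genes moved more. For the knockout at baseline (31 genes called) DESeq2 gave 220, the tubule covariate 65, the sex covariate 10 and leaving out 1 library 4 to 51. For the knockout after STZ (175) these were 566, 333, 63 and 40 to 109. For STZ in knockouts (24) they were 804, 307, 9 and 1 to 10. For STZ in controls (31) DESeq2 gave 410, the sex covariate 6 and leaving out 1 library 4 to 12. In the interaction (1) median-of-ratios size factors gave 2, DESeq2 31, either covariate 0 and leaving out 1 library 0 to 2. Over both arms DESeq2 called 696 genes for the knockout (380). Over both genotypes, for STZ (1169), DESeq2 gave 1817, the tubule covariate 2356, the sex covariate 261 and leaving out 1 library 501 to 1113. Some small log2 fold changes turned sign. With the tubule covariate the knockout difference was -0.077 for Pdgfrb, 0.051 for Serpine2 and -0.046 for Fhl2 at baseline and 0.0076 for Cspg4 after STZ. With sex it was -0.018 for Des and -0.10 for Nt5e after STZ, and the STZ change of Serpine2 over both genotypes was 0.076. Leaving out 1 library, the knockout difference at baseline ranged from -0.11 to 0.23 (Pdgfrb), -0.20 to 0.069 (Serpine2), -0.14 to 0.14 (Fhl2), -0.41 to 0.49 (Art3) and -0.53 to 0.040 (Cspg4). After STZ it ranged from -0.36 to 0.28 (Gata3), -0.012 to 0.59 (Serpine2), -0.10 to 0.42 (Fhl2), -0.13 to 0.14 (Des), -0.084 to 0.17 (Hopx), -0.15 to 0.20 (Cspg4) and -0.15 to 0.18 (Nt5e). Over both arms it ranged from -0.014 to 0.23 (Serpine2), -0.13 to 0.025 (Ptn), -0.040 to 0.19 (Fhl2), -0.13 to 0.022 (Hopx), -0.41 to 0.030 (Art3), -0.23 to 0.014 (Cspg4) and -0.17 to 0.00062 (Nt5e). The STZ change of Serpine2 ranged from -0.031 to 0.24 in knockouts, -0.55 to 0.055 in controls and -0.16 to 0.072 over both. The interaction ranged from -0.12 to 0.52 (Gata3), -0.12 to 0.41 (Fhl2) and -0.047 to 0.51 (Cspg4). The causes were not tested. Where leaving out a library left 2 mice in a group, their spread was pooled with the other groups. Precision was limited by 3 mice a group. Depth went with the arm, and sex was unevenly spread over the arms. No paired analysis was possible because the replicate numbers only name different mice.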
